A study of Triticum aestivum with 39 samples.

Results

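raftin1a, WZF1 and GA20ox1b are 3 wheat genes that had been put together as anther genes, and they were chosen by their measured level in anthers on the arrays described here. Their probesets were found by symbol or synonym in the tables that pair probesets with genes. These pair 1273 of the 61115 probesets of the Wheat GeneChip with 771 genes. Only 200 of those probesets have a gene name other than a LOC identifier. The 3 genes have 4 probesets. raftin1a is measured by 2 probesets, told apart here by the ends of their identifiers, _at and _x_at, and WZF1 and GA20ox1b by 1 probeset each, both ending in _at. The end _x_at means that probes can bind other transcripts, so this raftin1a probeset was not among the 39564 that were retained, and its tests come from a fit over all 61115.

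raftin1a encodes a BURP-domain protein that is made in the tapetum, the cell layer that lines the anther and feeds the pollen, and is delivered to the pollen wall. WZF1 encodes a zinc finger protein of the C2H2 kind that was first described as a factor binding a sequence element of wheat histone gene promoters. GA20ox1b encodes a gibberellin 20-oxidase, an enzyme of the late steps of gibberellin synthesis, and GA20ox1a and GA20ox1d are named as further copies of the same gene. Bread wheat is hexaploid, and most probesets of this array cannot separate the signals of the copies in its 3 genomes.

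RNA came from 13 tissues of wild-type, untreated wheat of the cultivar Chinese Spring, with 3 arrays per tissue, biological replicates in the words of the methods, and 39 arrays in all. Anthers, pistil and floral bracts (lemma, palea and glumes) were taken 2 days before anthesis from the central florets. The other tissues were the immature inflorescence of 2 to 3 cm and the caryopsis at 3 to 5 days after pollination (DAP). The embryo and endosperm were taken at 22 DAP, and the root, crown and leaf from seedlings of 10 cm. Germinating seed gave the root, coleoptile and embryo by the labels. The paper lists a mesocotyl and no embryo of germinating seed, so by elimination that label may stand for the mesocotyl. Each collection pooled material from 10 seeds, plants or spikes, and light of 16 h at 22 °C and darkness of 8 h at 16 °C are given for the germinating seeds and the potted plants. Values are MAS5 signals, and a level is log2(signal + 16), given as the mean ± SD of 3 arrays.

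The median signal of an array lay between 39.2 and 68.6 over the retained probesets. The 64 reporter probesets, which stand for background here, had their 95th percentile at signals of 44.7 to 138 on the 39 arrays. The polyadenylated control RNAs separated 9 arrays, those of seedling root, pistil and bracts, from the other 30. The mean level of the dap probesets was at most 4.92 on those 9 arrays and at least 8.58 on the others, so a difference between these 3 tissues and the other 10 cannot be told apart from a difference between these array groups. Of the retained marker probesets, 5 of 5 for the embryo and 10 of 11 for the endosperm had their highest mean in that tissue at 22 DAP. Markers of green tissue were less clear. Of 25, 15 were highest in the seedling leaf, 2 in bracts, 3 in anthers, 3 in the endosperm, and 1 each in coleoptile and crown. Of 11 for dividing cells, histones and tubulins, 7 were highest in the inflorescence. For pollen the reference tables held only PRO1, a profilin gene, and for the tapetum only the raftin genes themselves, so the cells of the anther samples could not be checked independently. PRO1 was measured only by 2 probesets with suffixes, which were not retained. It was high everywhere, with a mean level over both of 14.45 in anthers and of 13.42 to 14.59 in the other tissues. In samples of whole organs, fewer cells of a type and less RNA per cell cannot be told apart.

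On the _at probesets of raftin1a and GA20ox1b all 3 anther arrays stood above every array of the other 12 tissues. On the _x_at probeset of raftin1a the anther arrays overlapped with 6 of the 12. The genes were chosen by such values, so this lends the name anther genes no further support. For WZF1 the data went against the name. WZF1 had its highest mean in anthers, but floral bracts, leaf and seedling root overlapped with anthers, and 34 of the 39 arrays exceeded the 95th percentile of their reporters. GA20ox1b exceeded it on 29 arrays and raftin1a on 5 arrays with the _at probeset and 3 with the _x_at probeset. These anther values chose the genes, so they are described here without a test.

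**Figure D1:**
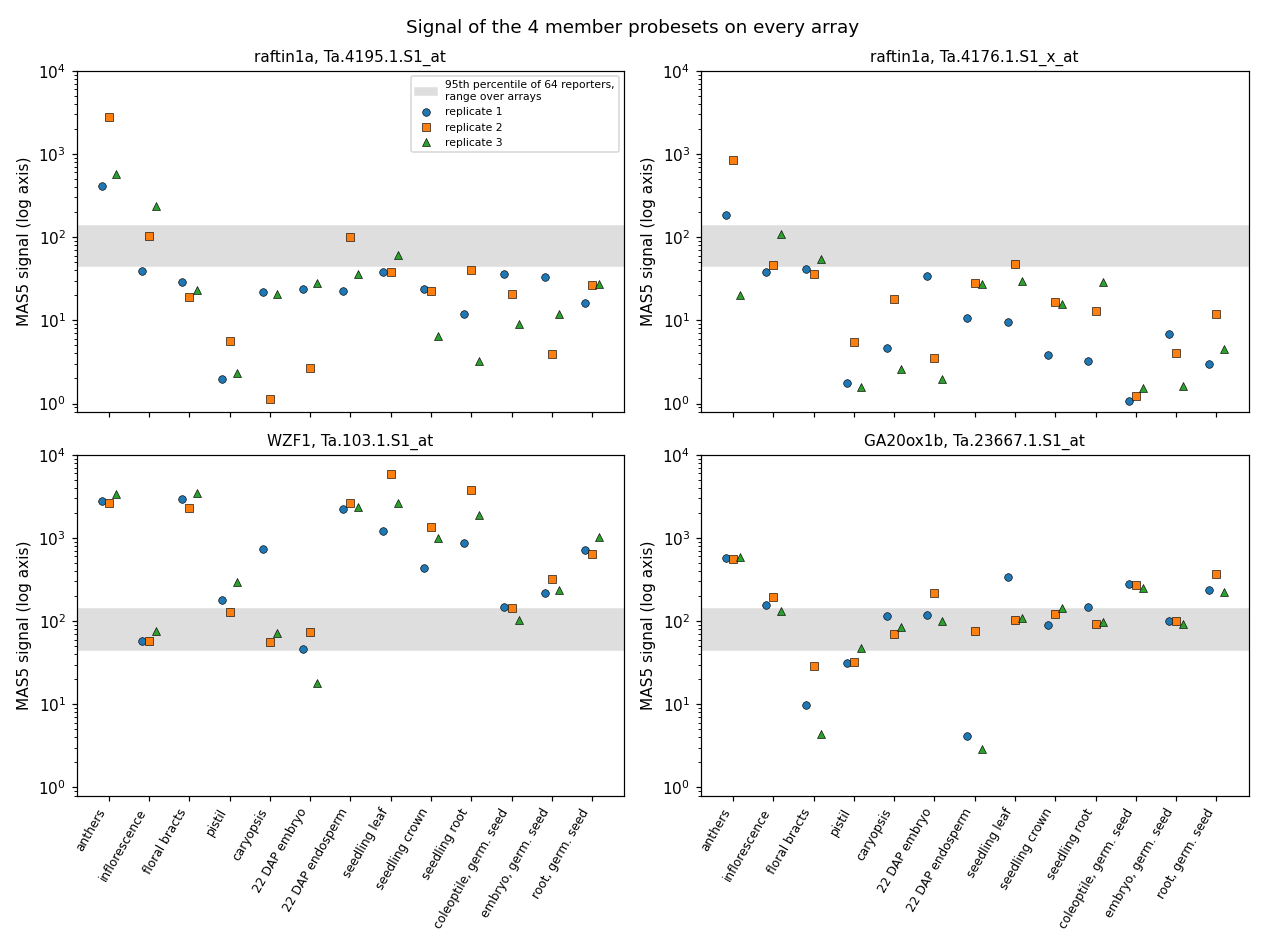
MAS5 signal (log axis) of each of the 4 probesets on every array, with anthers at the left and 1 symbol for each replicate number. The grey band spans the 95th percentile of the 64 reporters over the arrays, 44.7 to 138. raftin1a is above the band on all 3 anther arrays with its _at probeset and on 2 with its _x_at probeset, where replicate 3 is at 20.0, and it is near or below the band in most other tissues, WZF1 is above it in most tissues, and GA20ox1b is high in anthers with close replicates.

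raftin1a was high in anthers, with a weaker signal in the immature inflorescence, and its replicates in anthers were far apart. On its _at probeset the anther signals were 413, 2791 and 567, and those of the inflorescence, the next tissue, were 39.5, 102.0 and 237.6. The arrays of both tissues did not overlap, and replicate 2 was the high one in anthers and replicate 3 in the inflorescence. The level was 9.80 ± 1.45 in anthers and 6.89 ± 1.10 in the inflorescence, a difference of 2.91 or 7.51-fold. The endosperm at 22 DAP followed at 5.95 ± 0.83 and the seedling leaf at 5.92 ± 0.30, and no array of either exceeded the reporters' 95th percentile. The remaining tissues stood between 5.30 in bracts and 4.27 in the pistil, whose arrays had signals of 1.95, 5.67 and 2.32.

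The _x_at probeset of raftin1a had the same tissues in the highest places but rested on fewer arrays. Its signals were 185, 856 and 20.0 in anthers, against 38.3, 46.7 and 108 in the inflorescence and 40.9, 35.9 and 53.9 in bracts. Anther replicate 3 therefore lay within the range of the other tissues, and the anther arrays overlapped with 6 of the 12. The level in anthers was 7.53 ± 2.30, with 6.23 ± 0.64 in the inflorescence and 5.89 ± 0.22 in bracts.

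Anther replicate 2 stood far above the others for raftin1a. On the _at probeset that array was 6.75 times as high as replicate 1 and 4.92 times as high as replicate 3. raftin1b, the other raftin gene of the array, was measured by 2 probesets with a suffix, and these had the same array on top. In anthers the _s_at probeset of raftin1b had signals of 392, 2777 and 428 and its _x_at probeset of 479, 2456 and 292. Of the 8602 retained probesets with an anther level of at least 8, 12 (0.14%) had replicate 2 at least 4-fold above both others, and the _at probeset of raftin1a was 1 of them. This limit was set after the raftin values were seen. Of the other 11, 10 had no gene name and 1 was paired with LOC543135. On the same arrays WZF1 and GA20ox1b varied 1.27-fold and 1.07-fold between their highest and lowest anther array, against a median of 1.24-fold over the 8602. Without replicate 2 the gap between anthers and the inflorescence was 2.08 on the _at probeset and 0.18 on the _x_at probeset, against 2.91 and 1.30 with all arrays, so most of the gap stayed on the _at probeset and little on the _x_at probeset. Without replicate 3 it was 2.48 on the _x_at probeset. What sets replicate 2 apart was not tested.

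raftin1b had signal in bracts as well. On its _s_at probeset the bract signals were 346, 422 and 489, which overlapped with anthers, and those of the seedling leaf were 231, 131 and 155. On its _x_at probeset bracts had 108, 70.1 and 53.5, and all anther arrays were higher. The _at probeset of raftin1a had 28.8, 19.1 and 22.9 in bracts, all within the background of the reporters. Both raftin1b probesets may bind further transcripts. Bracts were the highest tissue after anthers on both, at levels of 8.75 (_s_at) and 6.50 (_x_at), so the 2 differ in size and in overlap with anthers. The seedling leaf was at 7.52 and 5.92.

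**Figure D2:**
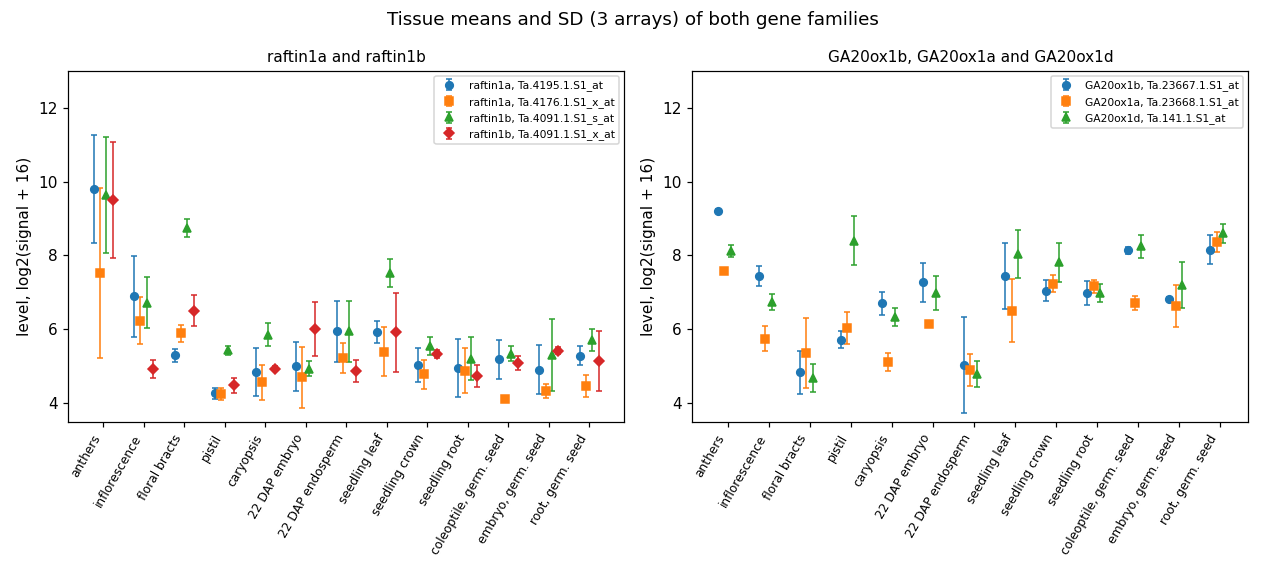
Level, log2(signal + 16), as the mean of 3 arrays with SD in 13 tissues, with anthers at the left. In the left plot the raftin probesets peak in anthers with wide SDs, and the _s_at probeset of raftin1b is at 8.75 in bracts. In the right plot GA20ox1b is highest in anthers, while GA20ox1d is at 8.12 in anthers and 8.40 in the pistil.

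WZF1 was abundant in anthers, floral bracts, leaf, endosperm and seedling root, and lowest in the 22 DAP embryo and the immature inflorescence. Its anther signals were 2792, 2645 and 3369, and those of bracts were 2934, 2298 and 3467. The levels were 11.52 ± 0.18 in anthers and 11.49 ± 0.30 in bracts, so these did not differ beyond their spread. The seedling leaf had 1221, 5902 and 2623 and a level of 11.39 ± 1.13. The endosperm at 22 DAP had 2212, 2593 and 2329, which lay just below the anther arrays, and a level of 11.22 ± 0.12. The seedling root followed at 10.86 ± 1.06, the crown at 9.74 ± 0.82 and the root of germinating seed at 9.62 ± 0.35, and neighbours in this order overlapped. A gap without overlap then separated the root of germinating seed from the embryo of germinating seed at 8.08 ± 0.29.

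The lower end held the pistil at 7.70 ± 0.55, the caryopsis at 7.39 ± 1.88, the coleoptile at 7.19 ± 0.25, the inflorescence at 6.30 ± 0.19 and the embryo at 22 DAP at 5.85 ± 0.72. The caryopsis arrays were 733, 55.5 and 72.0, so its mean rested on replicate 1. The inflorescence had 56.9, 57.1 and 76.2, and the 22 DAP embryo had 46.0, 74.7 and 17.9, signals of which 1 in each tissue exceeded the reporters' 95th percentile. The 3 seedling organs had wide replicates, up to 4.84-fold apart in leaf, and in each of them replicate 1 was the lowest and replicate 2 the highest. The rank of anthers was not stable. The difference of anthers minus the highest other tissue was -0.43 without leaf replicate 1, -0.13 without bract replicate 2 and -0.07 without anther replicate 3, and -0.77 after scaling to the hybridization controls, against 0.03 with all arrays.

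GA20ox1b had close replicates in anthers and a maximum there without overlap. Its anther signals were 569, 560 and 597, and the next tissue, the root of germinating seed, had 235, 373 and 222. The levels were 9.21 ± 0.05 in anthers and 8.16 ± 0.39 in that root, a difference of 1.05 or 2.07-fold. After scaling to the hybridization controls the difference to the highest other tissue was 0.12. The coleoptile of germinating seed was level with the root, with 283, 268 and 246 and a mean of 8.14 ± 0.09. The middle of the order ran from the inflorescence at 7.45 ± 0.26 over leaf at 7.44 ± 0.89, the 22 DAP embryo at 7.27 ± 0.53, the crown at 7.05 ± 0.29, the seedling root at 6.98 ± 0.32 and the embryo of germinating seed at 6.82 ± 0.06 to the caryopsis at 6.70 ± 0.31. Neighbours in this stretch overlapped. Pistil, endosperm and bracts were lowest, with no array above the reporters' 95th percentile. The pistil had 31.3, 32.5 and 47.9, the endosperm 4.21, 76.9 and 2.88, and bracts 9.74, 28.6 and 4.34. Anthers and bracts, both taken 2 days before anthesis, were thus at opposite ends of its order.

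What the choice of the genes left to test was their variation among the other 12 tissues and the comparisons without anthers. In the limma F test over the 12 tissues, 66.6% of the retained probesets passed (adjusted p under 0.05). WZF1 varied with an adjusted p of 6.95e-11 and GA20ox1b with 4.36e-08. The _at probeset of raftin1a passed with 0.0155, but without inflorescence replicate 3 the adjusted p was 0.0850. Its _x_at probeset had an adjusted p of 0.0435 in the fit over all probesets, where 74.3% passed, and leaving out any 1 of 27 arrays ended this call, with values of 0.0278 to 0.128 and the largest again without inflorescence replicate 3.

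**Figure D3:**
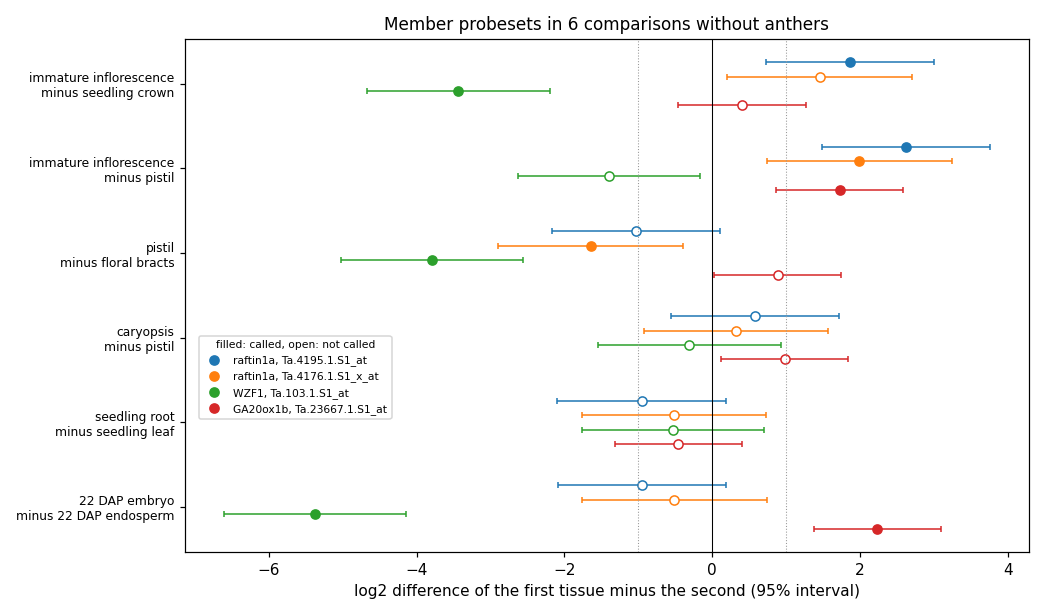
Difference on the log2 scale of the first tissue minus the second, with its 95% interval, for the 4 probesets in 6 comparisons without anthers. Filled symbols were called at an adjusted p under 0.05 and a difference of at least 1 (dotted lines). WZF1 is lower in 3 comparisons, by 3.43, 3.79 and 5.38, and no probeset is called for caryopsis minus pistil or root minus leaf.

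In the 6 comparisons between tissue pairs, a call required a difference of at least 1 on the log2 scale in either direction with an adjusted p under 0.05. In the immature inflorescence minus the seedling crown, 3.19% of retained probesets were higher and 5.63% lower. raftin1a was higher in the inflorescence on the _at probeset by 1.86 (95% interval 0.72 to 3.00, adjusted p = 0.0209), with crown signals of 23.9, 22.7 and 6.54. This call was lost without inflorescence replicate 2 (adjusted p = 0.0569), without inflorescence replicate 3 (0.183) and without crown replicate 3 (0.110). The _x_at probeset of raftin1a had a difference of 1.45 (0.21 to 2.70), which was not called. WZF1 was lower in the inflorescence by 3.43 (adjusted p = 9.17e-05), and the crown signals were 436, 1335 and 999.9. GA20ox1b had a difference of 0.40 (-0.46 to 1.26).

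The inflorescence minus the pistil set whole young spikes against an organ of florets close to anthesis, and here raftin1a and GA20ox1b were higher. Only the pistil is among the 9 arrays with weak polyadenylated controls. In this comparison 9.75% of retained probesets were higher and 9.74% lower. raftin1a was higher by 2.62 on the _at probeset (1.48 to 3.76, adjusted p = 0.000402). The _x_at probeset of raftin1a was higher by 1.99 (adjusted p = 0.0104, with 12.2% higher among all probesets), which was lost without inflorescence replicate 3 (0.0697). GA20ox1b was higher in the inflorescence by 1.73 (0.87 to 2.59, adjusted p = 0.00179). WZF1 had a difference of -1.40 (-2.63 to -0.16, adjusted p = 0.0909), which passed at an adjusted p of 0.0165 in a fit of only the 6 arrays.

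Between the pistil and the bracts, both from the 9 arrays with weak polyadenylated controls, 7.47% of retained probesets were higher in the pistil and 10.6% lower. WZF1 was lower in the pistil by 3.79 (95% interval -5.03 to -2.56, adjusted p = 8.51e-06), with pistil signals of 180, 130 and 296. The _x_at probeset of raftin1a was lower by 1.65 (adjusted p = 0.0368, with 12.7% lower among all probesets), and leaving out any of the 6 arrays ended this call, with adjusted p-values from 0.0584 to 0.104. No array of either tissue exceeded the reporters' 95th percentile on this probeset, so the difference lies within the background. The _at probeset of raftin1a had a difference of -1.03 (-2.17 to 0.10) and GA20ox1b of 0.88 (0.02 to 1.74), and neither was called.

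No probeset of the 3 genes was called by limma in caryopsis minus pistil or root minus leaf, and only GA20ox1b in caryopsis minus pistil had an unadjusted p under 0.05 (0.027). In the caryopsis minus the pistil, 6.89% of retained probesets were higher and 11.6% lower. GA20ox1b had a difference of 0.98 (0.12 to 1.84, adjusted p = 0.0892), WZF1 of -0.31 (-1.54 to 0.93), raftin1a of 0.58 (-0.56 to 1.72) on the _at probeset and of 0.32 (-0.93 to 1.57) on the _x_at probeset. GA20ox1b passed here with 3 other scalings of the arrays, at 1.14 to 1.18 (adjusted p = 0.0137 to 0.0308). Pistil and seedling root belong to the 9 arrays with weak controls, and caryopsis and leaf do not. In the seedling root minus the leaf, 14.4% were higher and 14.2% lower. WZF1 had a difference of -0.53 (-1.77 to 0.70), GA20ox1b of -0.46 (-1.32 to 0.40), and raftin1a of -0.96 (-2.09 to 0.18) on the _at probeset and -0.52 (-1.77 to 0.73) on the _x_at probeset.

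WZF1 and GA20ox1b had their largest differences of the 6 comparisons between the 22 DAP embryo and the endosperm, and in opposite directions. WZF1 was lower in the embryo by 5.38 (95% interval -6.61 to -4.14, adjusted p = 1.37e-08), with 46.0, 74.7 and 17.9 in the embryo and 2212, 2593 and 2329 in the endosperm. The groups were far apart, without overlap. GA20ox1b was higher in the embryo by 2.23 (1.37 to 3.09, adjusted p = 6.86e-05), with 120, 218 and 100.4 in the embryo and 4.21, 76.9 and 2.88 in the endosperm. In this comparison 12.5% of retained probesets were higher in the embryo and 16.3% lower. raftin1a had differences of -0.95 (-2.09 to 0.19) and -0.51 (-1.76 to 0.73), and neither was called. Neither tissue was among the 9 arrays with weak controls. The embryo and endosperm markers moved with their tissues, and their part in these differences was not tested.

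The other gibberellin genes with a name were GA20ox1a and GA20ox1d, with 1 retained probeset each. Against the mean of the other 12 tissues, 14.6% of retained probesets were higher in anthers and 14% lower. Both copies were higher in anthers, GA20ox1a by 1.25 (adjusted p = 0.000232) and GA20ox1d by 1.06 (adjusted p = 0.000807), and for GA20ox1b the same difference was 2.41 as a description. Neither call held under every setting. GA20ox1a fell below the size required after scaling to the hybridization controls (0.69) and with an offset of 64 (0.82). GA20ox1d did so with both of these (0.48 and 0.73), with equal medians (0.89), without bracts, pistil and seedling root (0.93) and without anther replicate 3 (0.97). Unlike GA20ox1b, both had their highest mean in the root of germinating seed on these probesets, while the _x_at probeset of GA20ox1d had 8.52 in anthers and 8.37 in that root. GA20ox1a had signals of 181, 163 and 181 in anthers and 257, 380 and 309 in that root. GA20ox1d had 257, 236 and 298 in anthers and 338, 456 and 330 in that root. All 3 copies were higher in the 22 DAP embryo than in the endosperm, by 1.23 (adjusted p = 0.00728) for GA20ox1a, 2.21 (3.94e-06) for GA20ox1d and 2.23 for GA20ox1b. Without endosperm replicate 3 the call of GA20ox1a was lost (0.98, adjusted p = 0.0554).

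The pistil held different places in the tissue orders of the copies. GA20ox1d had pistil signals of 188, 484 and 359, and only the root of germinating seed had a higher mean, whereas the pistil held place 11 of 13 for GA20ox1b. In the inflorescence minus the pistil, GA20ox1d was lower by 1.67 (adjusted p = 0.000266), GA20ox1a had a difference of -0.29 (-1.03 to 0.45), and GA20ox1b was higher by 1.73. The change of GA20ox1b exceeded that of GA20ox1d by 3.39 and that of GA20ox1a by 2.02, with no overlap between the 6 arrays in either case. The two-sided exact permutation p was 0.1 for each, the smallest that 3 against 3 arrays allow, and 0.133 after adjustment over 4 such comparisons. In the pistil minus the bracts GA20ox1d was higher by 3.72 (adjusted p = 2.98e-10), and GA20ox1a was not called but passed without bract replicate 1 (1.09, adjusted p = 0.0302). Here the change of GA20ox1b was 2.84 smaller than that of GA20ox1d (exact permutation p = 0.1). The change of GA20ox1b differed from that of GA20ox1a by 0.21, and the arrays overlapped (exact permutation p = 1). With 3 against 3 arrays none of the 4 comparisons could reach 0.05, so they cannot decide whether the copies differ. In the inflorescence minus the crown GA20ox1a and GA20ox1d were lower by 1.50 and 1.08 (adjusted p = 0.0037 and 0.0293), where GA20ox1b had 0.40. The call of GA20ox1d was lost without crown replicate 2 or 3 and without inflorescence replicate 1 or 2 (adjusted p = 0.0616 to 0.155). In the caryopsis minus the pistil GA20ox1d was lower by 2.06, and in the root minus the leaf by 1.06 (adjusted p = 1.74e-05 and 0.0136), and GA20ox1a was not called in either (though root minus leaf reached 1.13 without leaf replicate 1, adjusted p = 0.0138). The call of GA20ox1d for root minus leaf was lost without root replicate 1 and without leaf replicate 1 or 3 (adjusted p = 0.0507 to 0.106), and the difference was -0.28 after scaling to the hybridization controls. These comparisons share tissues, and a probeset may take signal from other copies.

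Histones were the other named genes linked to WZF1, with 7 retained probesets of 4 genes. All 7 were called lower in anthers than the mean of the other 12 tissues, against 14% of retained probesets. Their median was -3.61, against 0.10 over all retained probesets. By the rule for named genes, H2A-3 was lower by 4.33 (adjusted p = 2.84e-14) and 1 of the 3 retained probesets of wcH2B-8 by 3.94 (7.56e-11). At the other end were 1 of the 2 retained probesets of H2A-9, lower by 2.21 (8.27e-08), and wcH2B-6, lower by 1.14 (1.47e-05). The histone probesets with a suffix, in the fit over all probesets, were not uniform. The _s_at probeset of H2A-3 had 0.29 in anthers and -0.77 in pistil minus bracts, and neither was called. An _x_at probeset of H2A-9 had -0.56 in anthers, not called, and the others with a suffix were called lower in anthers. H2A and H2B histones package DNA, and their transcripts are known to be abundant in dividing cells.

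In 2 of the 3 comparisons in which WZF1 was called, the histones went the other way. In the 22 DAP embryo minus the endosperm all 7 were higher (against 12.5% of retained probesets), with a median of 2.65, where WZF1 was 5.38 lower. In the pistil minus the bracts all 7 were higher (against 7.47%), with a median of 2.62, where WZF1 was 3.79 lower. In the limma fit over all probesets, the _x_at probesets of H2A-2 (0.54, adjusted p = 0.272) and wcH2B-6 (1.28, 0.114) were not called in that comparison. The _s_at probeset of H2A-3 was not called either, and the other histone probesets with a suffix were called higher. In the inflorescence minus the crown WZF1 was 3.43 lower. There limma called 0 of 7 histones at an adjusted p under 0.05 (0 at an unadjusted p under 0.05). Their median was 0.19, against 0.07 over all retained probesets. Of the retained probesets 3.19% were higher there and 5.63% lower, so 0 of 7 is near that share. In the inflorescence minus the pistil 7 were higher (median 4.05, against 9.75%), and in the root minus the leaf 7 (2.78, against 14.4%). In the caryopsis minus the pistil 6 were higher (3.41, against 6.89%). WZF1 was not called in these 3 comparisons. The call of H2A-3 for inflorescence minus pistil was lost without any 1 of the 6 arrays (adjusted p = 0.0586 to 0.0946), and wcH2B-6 for root minus leaf was at 0.67, below the size required, without leaf replicate 1.

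**Figure D4:**
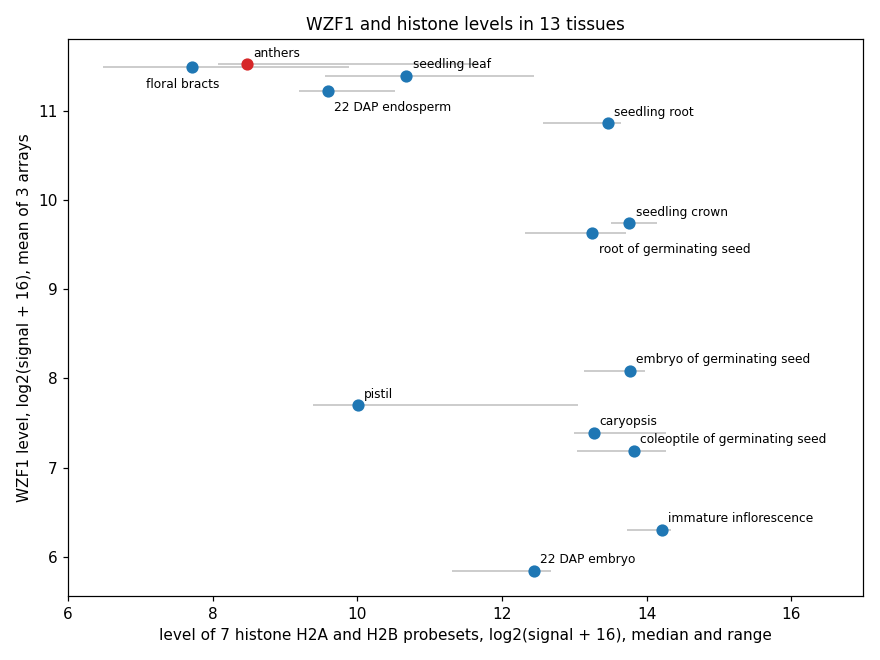
WZF1 level (mean of 3 arrays) against the median level of 7 histone H2A and H2B probesets in 13 tissues, both as log2(signal + 16), with the range of the 7 as horizontal lines. Anthers (red) and bracts combine high WZF1 with low histones, at 11.52 and 8.48 for anthers, and the inflorescence is at 6.30 and 14.21. The seedling root is high in both.

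Across the 13 tissues, WZF1 and the median level of the 7 histone probesets had r = -0.61 (Spearman's rho = -0.65), and r = -0.54 (rho = -0.56) over the 12 tissues without anthers. The 13 points come from the same 39 arrays, and this is a description. Anthers stood at 11.52 for WZF1 and 8.48 for the histone median, bracts at 11.49 and 7.71, the inflorescence at 6.30 and 14.21. The seedling root was high in both, at 10.86 and 13.46, and the pistil lower in both, at 7.70 and 10.01. GA20ox1b had r = 0.36 (rho = 0.32) with the same histone median over 13 tissues and r = 0.81 (rho = 0.59) over the 12 without anthers.

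Likeness of pattern was measured as Pearson's r over the 13 tissue means, among 16505 retained probesets with a tissue mean of at least 8. For WZF1, 9 probesets had r over 0.9, and none of these had a gene name. The named genes most like it were 1-FEH (r = 0.81), a fructan exohydrolase gene, H+-ATPase (0.74), a proton pump gene, UBC1 (0.74), a ubiquitin-conjugating enzyme gene, and 2 probesets of GSTZ1 (0.57 and 0.56), a glutathione transferase gene. 1-FEH ranked 101 of the 16505, behind unnamed probesets. For GA20ox1b the most similar named genes were its own copies, GA20ox1d and GA20ox1a (both r = 0.73, GA20ox1d ranking 144 of 16505), then wcH2B-6 (0.58), raftin1a (0.53) and H2A-9 (0.45), and 3 probesets were over 0.9. For the _at probeset of raftin1a, 53 probesets were over 0.9, and the named ones most like it were GA20ox1b (0.53, ranking 1933), la-17 (0.51), 1-FEH (0.46), WZF1 (0.35) and TBP1 (0.32), a gene for the TATA-binding protein. Over the 12 tissues without anthers 0 probesets were over 0.9, and r was 0.12 for GA20ox1b, 0.14 for la-17, 0.03 for 1-FEH, 0.09 for WZF1 and 0.15 for TBP1, lower in each case without the anther values that chose the genes. The _x_at probeset of raftin1a had r = 0.91 with its _at probeset, then 0.50 with 1-FEH, 0.45 with la-17, 0.44 with WZF1 and 0.32 with TBP1. Without anthers these were 0.79 with the _at probeset, 0.20, 0.10, 0.29 and 0.16. For WZF1 and its 5 most similar named probesets r without anthers was 0.64 to 0.79, and for GA20ox1b it was 0.74 with GA20ox1d, 0.69 with GA20ox1a, 0.84 with wcH2B-6 and 0.73 with H2A-9.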

How the data were processed

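RNA of 13 tissues, 3 arrays each, was hybridized to the Wheat GeneChip. The authors deposited MAS5 signals, a linear intensity per probeset scaled on each array (2% trimmed mean 500.1 to 500.2), whereas the study itself averaged replicates after RMA. The number of arrays limits the precision. No label says whether organs with the same replicate number came from the same plants, and p-values measure the spread between these samples. The seed part labelled embryo of germinating seed is kept under that name, although the paper lists a mesocotyl and no such embryo.

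Controls, reporters and probesets with ambiguous suffixes were left out, which leaves 39564 of 61115. The paper also dropped probesets without a clear link to the 3' end, whose hybridization it calls unreliable. Those without such a suffix were kept here, and the shares over retained probesets include them. Signals were tested as log2(signal + 16) with limma 3.58.1 in R 4.3.3, with a mean for each tissue over 39 arrays, empirical Bayes and Benjamini-Hochberg adjustment over all retained probesets. The script was tested on simulated data. The members and lists were chosen with earlier results of these data known, and anther contrasts of the members carry no test. All probesets of the 3 genes were named. Of the lists (gibberellin, BURP domain and pollen wall, histone and zinc finger genes), every gene was named where at most 6 probesets were retained, otherwise the 2 largest and 2 smallest anther differences. For likeness, up to 5 named probesets were given. Genes were named through probe-to-gene pairs and RefSeq gene tables.

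Alternatives were quantile normalization, scaling to equal medians or to hybridization controls, offsets of 1 and 64, all probesets, fits of the 6 arrays of 2 tissues, a replicate block, leaving out bracts, pistil and seedling root, and leaving out each array in turn.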

Additional observations from a re-analysis of the deposited data

How the results depend on the processing

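Of 291 calls of the 4 probesets under other settings, 266 kept direction and side of the threshold, 12 were lost, 10 gained and 3 turned, and of 288 with 1 array left out, 245, 38, 0 and 5. The cause was not tested. The calls of WZF1 and GA20ox1b in the F test and in all their called comparisons held throughout. For the _at probeset of raftin1a the F test had adjusted p = 0.138 with an offset of 64, 0.0561 without bracts, pistil and seedling root, and 0.00507 to 0.0850 with 1 array left out. For the _x_at probeset of raftin1a it was 0.0875 with quantile normalization, 0.0671 with equal medians, 0.471 with an offset of 64, 0.14 without those 3 tissues, and 0.0278 to 0.128 with 1 array left out.

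For inflorescence minus crown, the _at probeset of raftin1a lost its call with an offset of 1 (2.60), in the 6 arrays alone (1.86, adjusted p = 0.0871) and with a block in them (1.86, 0.168), and ranged over 1.31 to 2.40 with 1 array left out. The _x_at probeset of raftin1a gained it in the 6 arrays (1.45, 0.0399) and with the block (1.45, 0.0378). For inflorescence minus pistil, WZF1 passed in the 6 arrays (-1.40, 0.0165) and with the block (-1.40, 0.0204), and the _x_at probeset of raftin1a failed with an offset of 64 (0.90) and ranged over 1.63 to 2.22. For pistil minus bracts, the _at probeset of raftin1a passed with an offset of 1 (-2.59), in the 6 arrays (-1.03, 0.0078) and with the block (-1.03, 0.0422), and the _x_at probeset of raftin1a failed with quantile normalization (-1.57) and an offset of 64 (-0.68) and ranged over -1.74 to -1.53. For caryopsis minus pistil, GA20ox1b passed with quantile normalization (1.18), equal medians (1.18) and hybridization controls (1.14), and WZF1 ranged over -1.39 to 0.31. WZF1 turned there without caryopsis replicate 2 (0.31) or 3 (0.16). For root minus leaf, WZF1 turned with hybridization controls (0.31), without root replicate 1 (0.0092) and without leaf replicate 2 (0.04) and ranged over -1.09 to 0.04. GA20ox1b turned with hybridization controls (0.30) and without leaf replicate 1 (0.06) and ranged over -0.74 to 0.06. For embryo minus endosperm, the _x_at probeset of raftin1a turned with hybridization controls (0.011). None of the values that turned had been called.

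The level in anthers minus that of the highest other tissue turned for WZF1 with hybridization controls (-0.77), with quantile normalization (-0.0097) and without leaf replicate 1, bract replicate 2 or anther replicate 3, with a range of -0.43 to 0.13, and was 0.12 for GA20ox1b with hybridization controls. That scaling moved the median level of an array by -0.91 to 0.49. For likeness, Spearman's rho kept 2 of the 5 named probesets for the _x_at probeset of raftin1a and 0 of 5 for the _at probeset of raftin1a.

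Counts of called probesets over all 61115 were 45395 (F test), 6977, 14262, 13238, 13385, 20095 and 20117 in the 6 comparisons in the order of the text, and 20132 for anthers against the mean of the others, more than 1.5 times those of the retained probesets (26362, 3490, 7711, 7165, 7329, 11350, 11409 and 11307). With an offset of 64, caryopsis minus pistil had 4786, embryo minus endosperm 6935 and the anther comparison 7228.

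No correlation of same-numbered arrays was over 0.1, which cannot decide whether replicate numbers paired the samples. For root minus leaf every array correlated best with its own number (0.0453, 0.0397 and 0.0108). The replicate block over 39 arrays changed no call of the 4 probesets, with WZF1 at -0.53 and 11358 called for root minus leaf. For GA20ox1d, inflorescence minus crown lost its call with the block within 2 tissues (adjusted p = 0.0631), in the 6 arrays alone (0.0648), with quantile normalization (0.0659) and with offsets of 1 (0.0892) and 64 (-0.83). Its root minus leaf lost it with that block (0.117), in the 6 arrays (0.0682) and, as a difference under 1, with quantile normalization, equal medians, hybridization controls and an offset of 64 (-0.90, -0.80, -0.28 and -0.85). With an offset of 64 GA20ox1a lost its calls for inflorescence minus crown (-0.96) and embryo minus endosperm (0.59), and it gained root minus leaf with hybridization controls (1.37) and without leaf replicate 1 (1.13). H2A-3 lost inflorescence minus pistil with equal medians (0.99), and for root minus leaf H2A-3 and wcH2B-6 were lost in the 6 arrays (adjusted p = 0.0513 and 0.0930) and with the block (0.0691 and 0.101). wcH2B-6 lost pistil minus bracts with hybridization controls. The block within 2 tissues was chosen after seeing the data. A filter at the median level gave no value for raftin1a, which lies below it.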

Other observations

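In the seedling, WZF1 had the same order of replicate numbers in root, crown and leaf, with replicate 1 lowest and replicate 2 highest and spreads of 4.40-fold, 3.06-fold and 4.84-fold. Of 6355 retained probesets with a level of at least 8 in all 3 organs, 373 (5.87%) had 1 order of numbers in all 3, and 32 (0.504%) also had at least 2-fold between their highest and lowest array in each. WZF1 is 1 of the 32. This limit was set after the WZF1 values were seen, and whether organs with the same number shared plants is not stated.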
